A study of Mus musculus with 4 samples.

Results

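The genes described here are 10 protein tyrosine phosphatase genes of thymocytes, picked by name from the 24421 genes listed: the receptor-type genes *Ptprc*, *Ptprj* and *Ptprs*, and the non-receptor genes *Ptpn1*, *Ptpn2*, *Ptpn6*, *Ptpn7*, *Ptpn11*, *Ptpn12* and *Ptpn22*. All 10 were listed. RNA was sequenced from CD69+CD4+CD8+ (CD69+DP) thymocytes of C57BL/6 mice aged 6 weeks, in 2 control samples (Foxa1fl/flFoxa2fl/fl CD4Cre-) and 2 Foxa1/2cKO samples (Foxa1fl/flFoxa2fl/fl CD4Cre+). Both groups carried the floxed alleles of *Foxa1* and *Foxa2*, and Cre was driven by the *Cd4* promoter, so that deletion begins around the double-positive stage. Each sample was sorted from different mice, and no control carried Cre alone.

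Protein tyrosine phosphatases remove phosphate from tyrosines and so set how far the kinases of the T-cell receptor (TCR) pathway can act. CD45, encoded by *Ptprc*, keeps Lck ready to signal by removing its inhibitory phosphate, which the kinase Csk puts back. Phosphatases encoded by *Ptpn6* and *Ptpn22* dampen signalling from the activated receptor. The phosphatase encoded by *Ptpn2* acts on Lck and on the Jak-Stat pathway, and that encoded by *Ptpn7* acts further down, on MAP kinases. During positive selection, thymocytes read the strength of the TCR signal to survive and to become CD4SP or CD8SP cells.

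What makes these proteins 1 family is their catalytic pocket, in which a cysteine takes the phosphate and an arginine holds it. The coding stretch of that pocket is shown because it is the feature the genes share. Each line is read 5′ to 3′ on the coding strand. The first capitals are the codons for histidine and cysteine and the last capitals are the codon for the arginine. The bases come from the GENCODE M21 transcript of each gene with the longest coding sequence (GRCm38, which is mm10).

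Ptprc: CACTGCagtgctggtgttgggCGTacaggt
Ptprj: CATTGCagtgctggggttggaAGGacgggc
Ptprs, first domain: CACTGCagcgcgggtgtggggCGCactggc
Ptprs, second domain: CACTGCagcgccggagtgggcAGGaccgga
Ptpn6: CATTGCagcgctggcatcggcCGCacgggc
Ptpn11: CACTGCagcgctgggattggcCGGacagga
Ptpn22: CACTGCagtgccggctgcggaAGGacaggt
Ptpn12: CATTGCagtgcaggctgtggaCGAacaggt
Ptpn7: CACTGCagtgcagggatcggcCGGaccggc
Ptpn1: CACTGCagcgccggcatcgggAGGtcaggg

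The stretches were found by searching the translation for histidine and cysteine followed by arginine at a fixed distance. Bases that this pattern fixes are therefore the same by construction. Of the 30 bases, 17 were the same in all 10 stretches printed. Over the 45 pairs of stretches, between 18 and 25 bases were identical, with a median of 22. The closest pairs, with 25 identical bases, were *Ptpn22* with *Ptpn12*, both of the subfamily with PEST sequences, and *Ptpn11* with *Ptpn7*. *Ptprs* held the signature at codons 1548 and 1839 of its 1907, that is, in both of its phosphatase domains. *Ptprc* held it once, at codon 842 of 1293, although CD45 also has a pair of phosphatase domains. The stretch of *Ptpn2* was found too and is not printed here. An exon junction fell after base 8, within the codon that follows the cysteine, in 9 of the 11 stretches found, and none fell within the stretches of *Ptpn1* and *Ptpn2*. For *Ptprc* (minus strand) the stretch runs over the junction of exons 24 and 25 and spans chr1:138080249-138080844, and for *Ptpn22* (plus strand) it runs over exons 8 and 9 and spans chr3:103876730-103877326. The stretch of *Ptpn1* lies within exon 6 at chr2:167974207-167974236 on the plus strand.

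The values are FPKM, that is, fragments per kilobase of gene length, scaled for how deeply each sample was sequenced. Between 10394823 and 14480186 reads per sample were recovered on the listed genes. *Foxa1* and *Foxa2* were listed at 0 in all 4 samples, so they do not check the genotypes. Of the 11 marker genes of TCR-signalled DP cells, all were above the filter on low values in these libraries, *Cd4*, *Cd8a* and *Cd69* among them. Fold changes are Foxa1/2cKO minus control on log2(FPKM + 1), fitted with limma across the 10776 genes that reached an FPKM of 1 in 2 or more samples. Foxa1/2cKO 2 stood apart from the other libraries in its marker genes, described further on, and the main values of the 9 genes tested are also given with it left out. An exact permutation test of 2 samples against 2 could not give a two-sided p below 0.333.

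Of the 10 phosphatase genes, 9 were tested and 0 had an adjusted p under 0.05 from limma, against 0.00928% of all genes tested. At an unadjusted p under 0.05 the count was also 0, against 4.55% of all genes, and limma-voom on the recovered reads likewise gave 0 by either threshold. The 2 Foxa1/2cKO samples lay outside the 2 controls for 3 of the 9 genes (33.3%), close to the 36.7% of all genes. They lay above both controls for *Ptprc* and *Ptpn22* (18.9% of all genes) and below both for *Ptprs* (17.8% of all genes). The log2 fold change was above 0 for 7 of the 9 genes, against 51.3% of all genes, with a median of 0.027, against 0.0051 over all genes. Both rested on 1 library, since without Foxa1/2cKO 2 the log2 fold change was above 0 for 3 of the 9 genes and the median was -0.058. They also rested on the scaling, since after scaling to all recovered reads the count was 4 and the median -0.0063. The median absolute log2 fold change was 0.11 for the 9 genes and 0.11 for all genes.

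**Figure D1:**
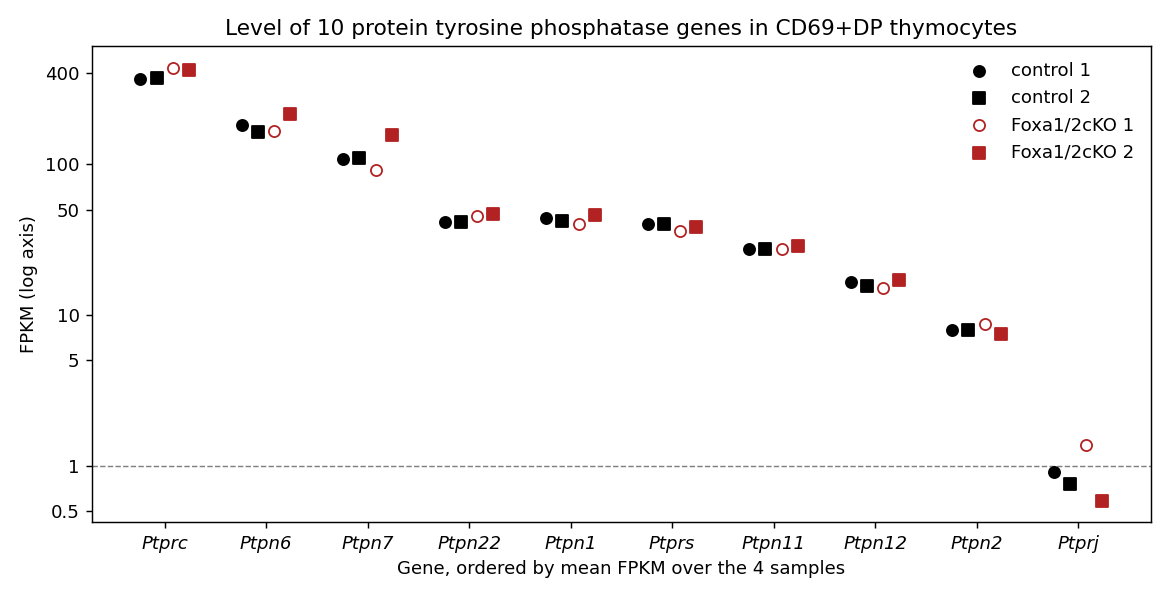
FPKM of the 10 phosphatase genes (log axis, 1 point per sample), ordered by their mean over the 4 samples. *Ptprc* stands highest in every sample, *Ptprj* lies around the dashed line at an FPKM of 1, and the filled squares of Foxa1/2cKO 2 stand above the other samples at *Ptpn6* and *Ptpn7*.

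By level, *Ptprc* came first with a mean of 400 FPKM over the 4 samples, as the plot of levels by sample shows. *Ptpn6* followed at 181 and *Ptpn7* at 117. *Ptpn22* (43.7), *Ptpn1* (43.1) and *Ptprs* (38.7) formed a group in which the ranges of neighbours overlapped, and *Ptpn22* was above *Ptpn1* in only 2 of the 4 samples. *Ptpn11* (27.6), *Ptpn12* (16.1), *Ptpn2* (8.0) and *Ptprj* (0.911) came next, each in a range of its own. CD45 is among the most abundant proteins of the T-cell surface, and *Ptprc* alone made up 43.2% to 50.3% of the summed FPKM of the 10 genes.

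The place of *Ptpn2* in this order depends on the gene length behind its FPKM. The values of *Ptpn2* were made with a length of 8404 bases, 3.15 times its longest transcript of 2667 bases in GENCODE M21. With each gene rescaled to its longest transcript, *Ptpn2* would be at 25.2 in place of 8.0 and *Ptpn11* at 20.8 in place of 27.6. This moves *Ptpn2* from place 9 to place 7. The rescaling takes all reads of *Ptpn2* to fall within that transcript, which was not checked. For the other genes this ratio of lengths was between 0.754 (*Ptpn11*) and 1.08 (*Ptprj*). A comparison between genotypes within a gene does not depend on it.

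*Ptprc* showed the largest fold change of the 9 genes with all 4 samples, while with either Foxa1/2cKO sample left out *Ptpn7* changed more. It lies on the minus strand of chromosome 1 of mm10 (138062861 to 138175708). Controls 1 and 2 had 367 and 374 FPKM and Foxa1/2cKO 1 and 2 had 436 and 422 FPKM, each value resting on 26525 to 31135 reads. Both Foxa1/2cKO samples were above both controls, and each pair of replicates was close. The mean was 370.5 ± 4.77 FPKM (SD, n = 2) without and 429 ± 10.02 FPKM (SD, n = 2) with the deletion, a ratio of 1.16. On the log2 scale the difference was 0.21 ± 0.086 (SE), with a 95% interval of -0.013 to 0.44 (limma, unadjusted p = 0.0599, adjusted p = 0.863). Leaving out any 1 sample gave 0.19 to 0.23. The values are per gene, so the exons that make the CD45 isoforms were not analysed here.

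*Ptpn22* encodes the phosphatase PEP, which acts with Csk on Lck and Zap70. It lies on the plus strand of chromosome 3 (103859795 to 103912247). The controls were at 41.2 and 41.4 FPKM, and Foxa1/2cKO 1 and 2 at 45.4 and 46.7 FPKM. The replicates again lay close together, with the Foxa1/2cKO samples above. The means were 41.3 ± 0.168 and 46.0 ± 0.908 (SD, n = 2 each), and the log2 fold change of 0.15 (standard error 0.080, 95% interval -0.058 to 0.36) had an adjusted p of 0.863 from limma. Leaving out any 1 sample gave 0.13 to 0.17. *Ptpn12*, which encodes PTP-PEST, the relative of PEP with the pocket most like it, was at 16.5 and 15.6 FPKM in the controls and at 15.01 and 17.2 in Foxa1/2cKO. Its groups overlapped, and its log2 fold change was 0.0032 with an interval of -0.28 to 0.28.

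The SH2-domain phosphatases bind phosphorylated tyrosines of receptors and adaptors. *Ptpn6* encodes SHP-1, which dampens TCR signalling and which Themis binds in thymocytes. Controls 1 and 2 had 181 and 162 FPKM, and Foxa1/2cKO 1 and 2 had 165 and 214 FPKM. Foxa1/2cKO 1 lay between the controls and Foxa1/2cKO 2 above them, so the groups overlapped. The means were 172 ± 13.5 and 189 ± 34.7 (SD, n = 2 each), which is 0.13 ± 0.15 (SE) on the log2 scale (95% interval -0.28 to 0.53). This value was -0.058 without Foxa1/2cKO 2 and 0.32 without Foxa1/2cKO 1. Of the exonic bases of *Ptpn6*, 7.0% overlap exons of *Gm20531* on the other strand, and the counting is not stated to use strand.

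*Ptpn11* encodes SHP-2, which passes signals on to Ras. It was nearly the same in 3 of the samples, at 27.3 and 27.4 FPKM in the controls and 27.2 in Foxa1/2cKO 1, and was at 28.6 in Foxa1/2cKO 2. The fitted difference was 0.027 ± 0.084 (SE) on the log2 scale, with a 95% interval of -0.19 to 0.25. Changes within that range are not excluded.

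*Ptpn7* encodes the haematopoietic phosphatase that acts on the MAP kinases Erk and p38. It differed most between the Foxa1/2cKO samples. The controls were at 108 and 110 FPKM, and Foxa1/2cKO 1 and 2 at 92.0 and 156 FPKM, on 3241 to 5657 reads. The Foxa1/2cKO samples lay on either side of the controls, and Foxa1/2cKO 2 was 1.70 times Foxa1/2cKO 1. The log2 fold change was 0.13 with a standard error of 0.26 and a 95% interval of -0.55 to 0.82, the widest of the 9 genes. It was 0.51 without Foxa1/2cKO 1 and -0.24 without Foxa1/2cKO 2, so no direction can be given.

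*Ptpn1* and *Ptpn2* encode close relatives, PTP1B on the endoplasmic reticulum and the T-cell phosphatase TC-PTP, which act on Jak kinases and, for TC-PTP, on Stat proteins and Lck. *Ptpn1* was at 44.2 and 41.9 FPKM in the controls and at 40.1 and 46.1 in Foxa1/2cKO. The means were 43.0 ± 1.58 and 43.1 ± 4.23 (SD, n = 2 each), which is -0.0012 on the log2 scale with an interval of -0.28 to 0.27. *Ptpn2* was at 7.94 and 7.92 FPKM without the deletion, and Foxa1/2cKO 1 and 2 had 8.66 and 7.47 FPKM. Its log2 fold change was 0.018 with an interval of -0.28 to 0.32. In both genes the controls lay between the Foxa1/2cKO samples, and the sign of the fold change turned with the sample left out.

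Of the receptor-type genes other than *Ptprc*, *Ptprs* encodes PTP sigma, a receptor for proteoglycans known from neurons and plasmacytoid dendritic cells. The controls were at 40.2 and 40.1 FPKM and Foxa1/2cKO 1 and 2 at 36.2 and 38.3 FPKM, so both Foxa1/2cKO samples lay below both controls. The means were 40.2 ± 0.0937 and 37.3 ± 1.5 (SD, n = 2 each), which is -0.11 ± 0.084 (SE) on the log2 scale (95% interval -0.32 to 0.11, adjusted p = 0.863 from limma). Leaving out any 1 sample gave -0.15 to -0.065. The 4 markers of plasmacytoid dendritic cells summed to 49.0 and 45.7 FPKM in the controls, against 46.5 and 43.4 with the deletion. Most of that sum was *Pacsin1*, which like *Ptprs* lay below both controls with the deletion (39.1 and 41.9 against 33.9 and 31.7 FPKM, unadjusted p = 0.0246 and adjusted p = 0.863 from limma). The other 3 were at 0.420 to 6.65 FPKM, and their log2 fold changes went the other way, at 0.39 for *Siglech*, the defining surface marker, 0.45 for *Cox6a2* and 1.23 for *Klk1*, so the median of the list was 0.42. The part of such cells in the *Ptprs* values was not tested, and in bulk RNA fewer cells of a type and less RNA per cell cannot be told apart.

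*Ptprj* encodes CD148, a receptor-type phosphatase of leukocytes that acts on Src-family kinases. It was the 1 gene that did not pass the filter, with 113 and 85 reads in the controls against 123 and 54 after deletion. In FPKM this was 0.915 and 0.759, and 1.38 and 0.590. Exact Poisson intervals of 95%, which cover counting error only, were 0.606 to 1.10 over the controls, 1.15 to 1.65 in Foxa1/2cKO 1 and 0.443 to 0.770 in Foxa1/2cKO 2. The 2 Foxa1/2cKO samples thus differed by more than counting error, and the controls lay between them. Of the 50-base stretches of its longest transcript, 5.41% also occur in transcripts of other annotated genes.

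**Figure D2:**
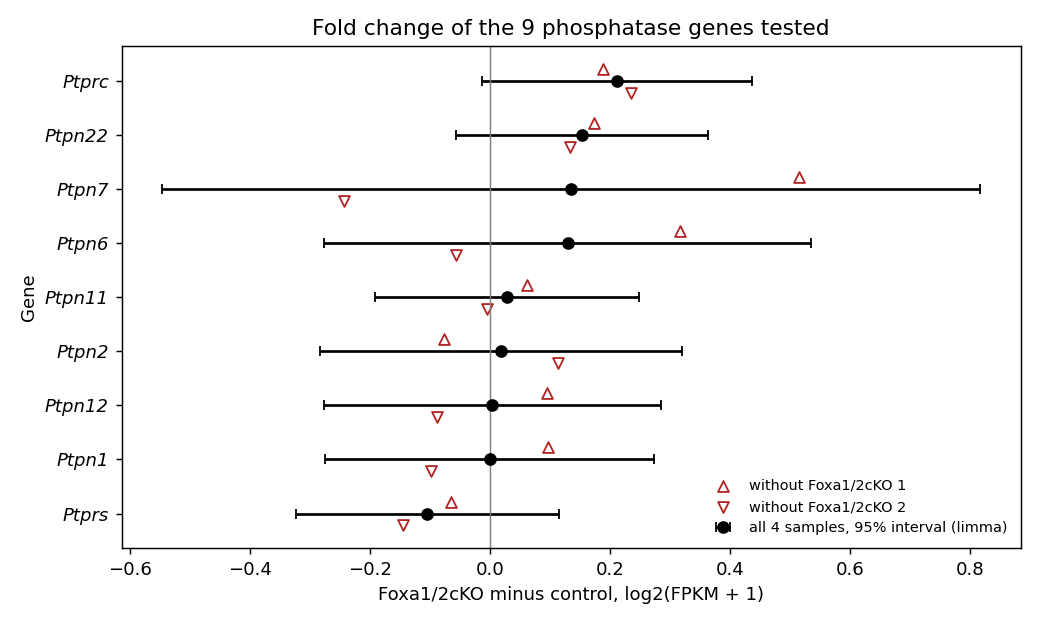
Log2 fold change (Foxa1/2cKO minus control, log2(FPKM + 1)) of the 9 phosphatase genes tested, as a black point with its 95% interval from limma, and with 1 Foxa1/2cKO sample left out (open triangles). Every interval includes 0, and the triangles of *Ptpn7* lie at 0.51 and -0.24, on both sides of 0.

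**Figure D3:**
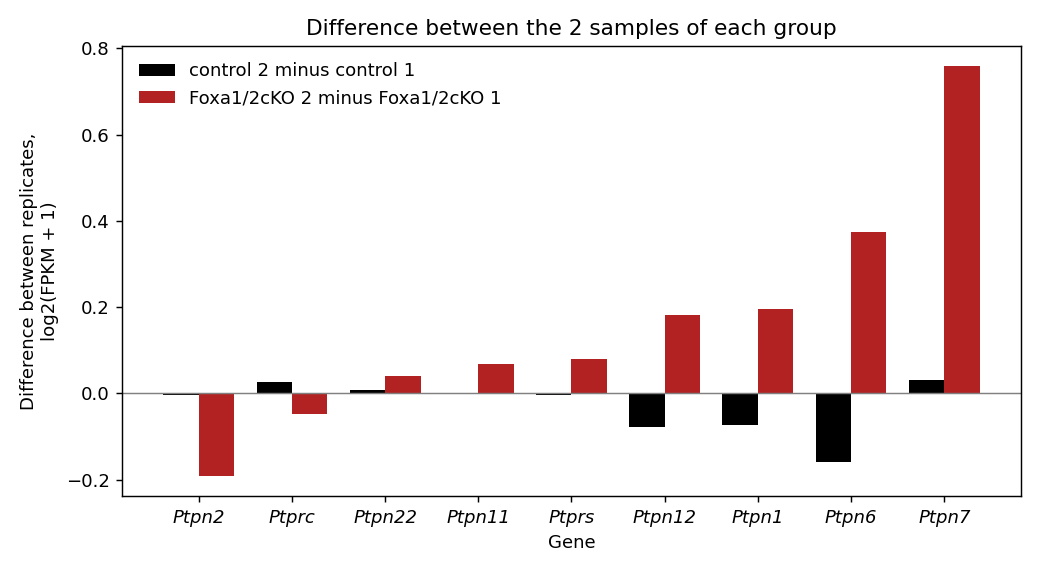
Difference between the 2 samples of each group on log2(FPKM + 1) for the 9 genes tested, sample 2 minus sample 1. The red bars of Foxa1/2cKO are longer than the black bars of the controls for all 9 genes, up to 0.76 at *Ptpn7*.

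The spread between replicates was larger in Foxa1/2cKO than in control for all 9 genes, as the bar plot of replicate differences shows. The median absolute log2 difference between samples of a group was 0.026 in control and 0.18 in Foxa1/2cKO. Over all genes tested these medians were 0.076 and 0.20, so the wider spread in Foxa1/2cKO was general. The difference of 0.76 in *Ptpn7* was exceeded by 6.63% of all genes and that of 0.37 in *Ptpn6* by 23.9%. *Ptprc* (0.048) and *Ptpn22* (0.039) differed less between the Foxa1/2cKO samples than most genes, since 86.8% and 88.9% of all genes differed more. Foxa1/2cKO 2 held the highest value of the 4 samples for 6 of the 9 genes, a count not made over all genes. It was above Foxa1/2cKO 1 for 7 of the 9 genes, against 53.7% of all genes. The read number behind its FPKM scaling was 11093927, below its 11261280 recovered reads. In each of the other samples that number was above the recovered reads. Its FPKM thus stand higher against the other samples than after scaling to recovered reads. These counts were not redone with that scaling.

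Marker genes also set Foxa1/2cKO 2 apart. Of 7 markers of mature single-positive cells, 6 were lowest in Foxa1/2cKO 2, and their summed FPKM was 289 to 328 in the other samples and 196 in that sample. Of 11 markers of TCR-signalled DP cells, 9 were highest in Foxa1/2cKO 2 with the deposited scaling. The 11 markers summed to 3223 to 3300 FPKM in the other samples and to 4292 in Foxa1/2cKO 2. The 6 B cell markers summed to 76.2 and 50.6 FPKM in the controls, against 104 and 54.4 with the deletion, and the 5 myeloid markers to 27.4 and 17.0, against 24.7 and 12.6. B cells and myeloid cells are known to express *Ptprc* and *Ptpn6*. Both sums were higher in the sample numbered 1 of each group. *Ptpn6* was higher in control 1 and in Foxa1/2cKO 2, and *Ptprc* was higher in control 2 and in Foxa1/2cKO 1. The 4 natural killer markers summed to 2.43 to 4.604 FPKM in control and 3.12 to 5.0 in Foxa1/2cKO, the 5 thymic epithelial markers to 3.18 to 3.26 and 3.69 to 4.18, and the 5 erythroid markers to 0.608 to 1.12 and 1.01 to 2.67, with 3 globin genes (*Hbb-bs*, *Hbb-bt* and *Hba-a1*) listed at 0. The part of these differences in the values of the phosphatase genes was not tested.

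When Foxa1/2cKO 1 was left out, 3 of the 9 genes had an adjusted p under 0.05 from limma: *Ptprc* (0.19 on the log2 scale, adjusted p = 0.0358), *Ptpn6* (0.32, adjusted p = 0.0261) and *Ptpn7* (0.51, adjusted p = 0.00178). In that fit 25.4% of all 10619 genes passed, and the lone Foxa1/2cKO sample is assumed to vary like the controls. When Foxa1/2cKO 2 was left out, the log2 fold changes of these 3 genes were 0.23 for *Ptprc*, -0.058 for *Ptpn6* and -0.24 for *Ptpn7*.

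**Figure D4:**
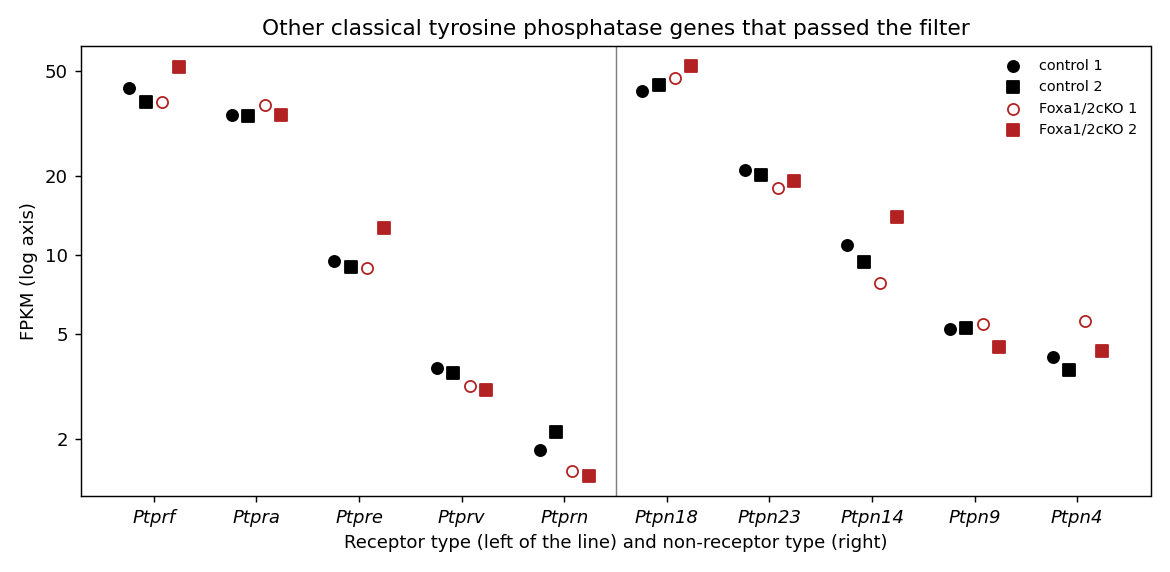
FPKM (log axis, 1 point per sample) of the 10 other classical tyrosine phosphatase genes that passed the filter on low values, with receptor-type genes left of the line. *Ptpn18*, *Ptprf* and *Ptpra* stand highest, between 33.6 and 51.9 FPKM in every sample.

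The 10 genes, picked by name as phosphatases of thymocytes, held most of the summed FPKM of the classical tyrosine phosphatase genes listed. The PRL and low molecular weight phosphatases, described further on, are not in that sum. Among 38 classical tyrosine phosphatase genes listed, 19 passed the filter, 18 were below an FPKM of 1 in all samples and 5 of these were listed at 0 in all samples (*Ptprd*, *Ptprg*, *Ptprr*, *Ptprt* and *Ptpn20*). The 10 genes held 82.9% of the summed FPKM of the 38. Of the others, the highest were *Ptpn18*, a phosphatase of the PEST subfamily, at 42.9 ± 1.54 FPKM without and 49.3 ± 3.61 FPKM with the deletion (SD, n = 2 each), and *Ptprf*, which encodes LAR, the relative of PTP sigma, at 40.4 ± 3.31 and 44.8 ± 9.74. *Ptpra*, which like CD45 acts on the inhibitory tyrosine of Src-family kinases, was at 33.8 ± 0.225 and 35.5 ± 2.35 FPKM.

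Of the 18 other receptor-type genes 5 were tested, and of the 10 other non-receptor genes also 5. In both lists 0 had an adjusted p and 0 an unadjusted p under 0.05, and the median log2 fold changes were 0.067 and 0.046. The groups did not overlap for 2 of the 5 receptor-type genes tested, against 36.7% of all genes, and both lay below the controls: *Ptprn* (log2 fold change -0.25, standard error 0.16) and *Ptprv* (-0.17, standard error 0.13). They did not overlap for 3 of the 5 non-receptor genes tested, of which *Ptpn4* (0.28, standard error 0.16) and *Ptpn18* (0.20, standard error 0.095) lay above the controls and *Ptpn23* (-0.15, standard error 0.090) below. The value of *Ptpn4* was 0.12 without Foxa1/2cKO 1 and 0.44 without Foxa1/2cKO 2. That of *Ptpn18* was 0.27 without Foxa1/2cKO 1, where it passed (adjusted p = 0.0288 from limma), and 0.12 without Foxa1/2cKO 2. *Ptprn* was little above the filter, at 1.81 and 2.13 FPKM in the controls and at 1.52 and 1.45 in Foxa1/2cKO. With a pseudocount of 0.1 its log2 fold change was -0.38. *Ptprv* was at 3.71 and 3.56 FPKM in the controls and at 3.18 and 3.08 in Foxa1/2cKO. *Ptpn4* was at 4.10 and 3.65 FPKM in the controls and at 5.61 and 4.31 in Foxa1/2cKO. *Ptpn18* followed the order of its relative *Ptpn22*, with 41.8 and 44.0 FPKM in the controls against 46.8 and 51.9 after deletion.

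Of 34 genes for substrates and partners of these phosphatases, 33 were tested, 0 had an adjusted p under 0.05 and 2 had an unadjusted p under 0.05 (4.55% of all genes did), both with higher values in Foxa1/2cKO. Both encode Jak kinases on which TC-PTP or PTP1B act. The groups overlapped for the other Jak family genes of the list, *Jak3* (log2 fold change -0.27) and *Tyk2* (0.14). *Jak1* was at 144 and 136 FPKM in the controls and at 167 and 189 in Foxa1/2cKO, or 0.34 ± 0.10 (SE) on the log2 scale (limma, unadjusted p = 0.0218, adjusted p = 0.863). *Jak2* was at 37.2 and 36.6 FPKM in the controls and at 43.2 and 44.5 in Foxa1/2cKO, or 0.24 ± 0.081 (SE) on the log2 scale (limma, unadjusted p = 0.0324, adjusted p = 0.863). In both genes the groups did not overlap, which held for 7 of the 33 genes (21.2%), against 36.7% of all genes. *Themis*, the partner of SHP-1, had the largest fold change of the list whose groups did not overlap (0.46, standard error 0.18), which became 0.21 to 0.71 on leaving out any 1 sample. Without Foxa1/2cKO 1, where 25.4% of all genes passed, *Jak1*, *Jak2* and *Themis* passed too (adjusted p = 0.00467, 0.0271 and 0.000673 from limma).

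The 4 most abundant substrates and partners had means above those of the controls, while Foxa1/2cKO 1 lay below or between the controls. *Lck* was at 749 and 741 FPKM in the controls and at 675 and 844 in Foxa1/2cKO, *Lat* at 578 and 591 and at 530 and 671, and *Cd5* at 484 and 423 and at 402 and 732. *Ptprcap*, whose protein associates with CD45, was at 423 and 398 FPKM in the controls and at 408 and 591 in Foxa1/2cKO, so it did not share the close replicates of *Ptprc*. In these 4 genes Foxa1/2cKO 2 was the highest sample. With the deposited scaling this held for 24 of the 34, a count not made over all genes. The median log2 fold change of the list was 0.058.

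Because Foxa1 and Foxa2 are the factors deleted, promoters of the 10 genes were searched on both strands for the forkhead cores TGTTTAC and TGTTTGC, in windows of 250 bases before to 50 after the gene start (RefSeq, GRCm38.p6). A window was found for 8 of the genes, 13 windows in all. Only 1 window, of *Ptpn22*, held a match (7.69%), close to the 8.48% of all 32851 windows. The upstream part of that window with both matches (TGTTTGC, in capitals), chr3:103859550-103859718 on the plus strand, is shown because no other window of these genes held a match.

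Ptpn22, upstream: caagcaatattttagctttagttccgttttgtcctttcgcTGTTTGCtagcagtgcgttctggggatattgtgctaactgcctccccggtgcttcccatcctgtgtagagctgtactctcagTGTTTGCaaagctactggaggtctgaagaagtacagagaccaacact

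The matches begin 205 and 123 bases before the annotated start. They describe the letters only, since binding was not measured in these samples.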

How the data were processed

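RNA from 4 samples of FACS-sorted CD69+DP thymocytes was sequenced, 2 control and 2 Foxa1/2cKO. Alignment by the authors was to mm10, and reads were counted per RefSeq gene with HTSeq in union mode. The FPKM values deposited by the authors were used, and the step from counts to FPKM is not given in the sources used here. The submitters' processing notes name TopHat, Picard and DESeq2. No unmapped sample columns were present.

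FPKM of low genes come in steps of 1 read, from which whole reads were recovered (within 0.001 reads) for 99.98% of the 16069 genes above 0. They gave the reads per gene and the length behind each FPKM. Of 1843 low genes checked, 95.0% had a whole length.

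FPKM were tested with limma 3.58.1 in R 4.3.3 on log2(FPKM + 1) with a mean-variance trend (2 residual and 2.69 prior degrees of freedom) and Benjamini-Hochberg adjustment over all genes tested at 0.05. The pseudocount of 1 understates changes of low genes. The fit was first tested on simulated data. Since each group has 2 samples, p-values rest only on the spread between these samples, moderated by the trend over all genes tested. The genes and lists were chosen with earlier results of these data known, so no list was tested. Named are the 10 genes and, of 4 lists, genes with an unadjusted p under 0.05, the 4 highest and the 2 with the largest change without overlap. *Pacsin1*, *Siglech*, *Klk1*, *Cox6a2*, *Ptpn23*, *Jak3* and *Tyk2* were named with their change after their values were seen. Alternatives were a pseudocount of 0.1, no filter, upper-quartile scaling, a replicate block, an adjusted p of 0.1 and leaving out each sample. Scaling to all recovered reads and limma-voom on recovered reads were chosen after seeing the data. Other steps used Python 3.11.15, pandas 2.3.3 and matplotlib 3.10.9.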

Additional observations from a re-analysis of the deposited data

How the results depend on the processing

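The number of phosphatase genes with an adjusted p under 0.05 was 0 in each alternative run except without Foxa1/2cKO 1, and lay between 0 and 3 on leaving out 1 sample at a time. With a replicate block it was 0, and 1 gene of all was called, as without it. Same-numbered samples did not deviate together (r = -0.059 across genes), so the numbers were not taken as pairs. Over all genes the number called was 1, and it was 0 with a pseudocount of 0.1, without the filter, when scaled to all recovered reads and with limma-voom. With a sample left out it ranged from 0 to 2695, with 24 without Foxa1/2cKO 2, and the cause was not tested. Of the 9 phosphatase genes, 7 had a log2 fold change above 0. This ranged from 3 to 8 with a sample left out and was 4 when scaled to all recovered reads. Their median log2 fold change ranged from -0.058 to 0.097 with a sample left out. Of 90 alternative fold changes for single phosphatase genes, 75 kept direction and side of the threshold, 3 passed it and 12 turned sign. Scaled to all recovered reads, the median log2 fold change of all genes moved to -0.027, and the log2 fold change was -0.0063 for *Ptpn11*, -0.030 for *Ptpn12* and -0.013 for *Ptpn2*. That of *Ptpn12* was -0.0087 with upper-quartile scaling. With a sample left out, the log2 fold changes ranged from -0.058 to 0.32 for *Ptpn6*, from -0.0061 to 0.061 for *Ptpn11*, from -0.088 to 0.095 for *Ptpn12*, from -0.24 to 0.51 for *Ptpn7*, from -0.077 to 0.11 for *Ptpn2* and from -0.099 to 0.097 for *Ptpn1*. *Ptpn12* was at -0.036 without control 2, and *Ptpn1* at 0.035 without control 1. *Ptprj* entered the fit without the filter, with a log2 fold change of 0.084 (adjusted p = 0.948 from limma).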

Other observations

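Beside the classical tyrosine phosphatases, thymocytes express the small phosphatases of the PRL family (*Ptp4a1*, *Ptp4a2* and *Ptp4a3*) and the low molecular weight phosphatase encoded by *Acp1*. *Ptp4a2* was at 102 and 108 FPKM in the controls and at 105 and 98.4 in Foxa1/2cKO, a level close to that of *Ptpn7*. *Ptp4a3* was at 41.7 and 42.5 FPKM in the controls and at 38.3 and 39.9 in Foxa1/2cKO, so both Foxa1/2cKO samples lay below both controls (log2 fold change -0.10, standard error 0.082, adjusted p = 0.863 from limma). *Acp1* was at 7.18 and 7.50 FPKM in the controls and at 7.79 and 5.68 in Foxa1/2cKO. *Ptp4a1* did not pass the filter, with 0.699 to 1.02 FPKM. None of the 3 tested genes had an unadjusted p under 0.05 in the fit with all samples.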
